A study of Mus musculus with 28 samples.

Results

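Quiescent pregranulosa cells low in Amh were taken from single-cell libraries of mouse ovaries by a fixed rule on gene expression, which 5503 of 40594 deposited cell barcodes met. A cell had to hold at least 1000 genes and at most 20% mitochondrial UMIs (unique molecular identifiers, each standing for 1 captured transcript), which 38274 barcodes did. It had to hold UMIs of at least 2 of the granulosa genes Foxl2, Kitl, Inha and Gatm, and less than 200 CPM of Amh (its UMIs scaled to a common total). Cells were left out when stromal collagen genes reached 0.2% or oocyte genes 0.3% of their UMIs, or when they held 4 of 6 genes of division, 3 of 6 genes of the transitional state or 4 of 6 genes of the ovarian surface epithelium. The members were thus chosen by their own measured levels of Amh, of granulosa genes and of the genes that mark other classes. None of 6 genes used here as markers entered the rule: Btg2, Junb and Txnip, which the study takes as quiescence genes, Lgr5 and Gng13, which it takes as epithelial, and the chemokine gene Cxcl10.

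The ovaries came from C57BL/6J wild-type females and from females homozygous for Chek2tm1b(EUCOMM)Hmgu (Chek2-/-), a targeted allele of the checkpoint kinase gene that was carried in all cells of the animal. Females received whole-body gamma radiation at 0.5 Gy (IR) or a sham exposure (nonIR), and ovaries were collected 6 h later. There were 4 single-cell libraries, 1 for each genotype and treatment, each made from the pooled ovaries of 4 females at 7 days of age. In addition, 24 bulk RNA-seq libraries, 6 per group, were made from the paired ovaries of females irradiated at 7 to 9 days of age. With 1 single-cell library per condition, differences between conditions in these cells had no replicate check, and a condition, a pool of females and a library cannot be told apart.

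At this age most follicles are primordial: an arrested oocyte enclosed by flat pregranulosa cells that do not divide. Pregranulosa cells hold the oocyte dormant and, on activation, become cuboidal granulosa cells that divide and secrete anti-Müllerian hormone, the product of Amh. Radiation breaks DNA, and CHEK2 passes the damage signal from the kinase ATM to the transcription factor p53 and, in oocytes, to its relative TAp63. Of the markers, Btg2 restrains cell division and is also a p53 target, Junb encodes a subunit of the AP-1 transcription factor, Txnip inhibits thioredoxin and glucose uptake, Lgr5 encodes a receptor for R-spondins, Gng13 encodes a G protein subunit and Cxcl10 encodes a chemokine induced by interferon.

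Values from 4 libraries are given below in the order wild-type nonIR, wild-type IR, Chek2-/- nonIR and Chek2-/- IR. The libraries held 1256, 1794, 1382 and 1071 of these pregranulosa cells, or 12.99, 17.34, 15.20 and 11.68% of the barcodes that passed the limits on genes and mitochondrial UMIs. Their median depth was close in all libraries, at 16290.5, 16670, 16521.5 and 15917 UMIs per cell. No UMI of Amh was found in 51.8, 55.8, 59.6 and 55.8% of them. The libraries shared 30 to 73 barcodes per pair, and none of those shared barcodes belonged to a pregranulosa cell in both libraries. Chek2 itself was low here, at 4.47, 5.32, 1.71 and 1.56 CPM (102, 177, 43 and 30 UMIs), and its level in Chek2-/- nonIR cells was 0.381 times that in wild-type nonIR cells (95% exact counting interval 0.260 to 0.549). These intervals, here and below, cover counting error only.

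All 4 granulosa genes of the rule were detected in 961, 1330, 1026 and 786 cells, which is a description and no check of the label, since these genes chose the cells. Amhr2, the receptor for anti-Müllerian hormone and a granulosa marker that the rule did not use, was at 457.5, 437.2, 470.9 and 472.3 CPM, against 11.04, 9.99, 11.8 and 9.767 CPM in stromal cells. Those stromal cells were chosen for stromal genes and for holding fewer than 2 of the same 4 granulosa genes. This contrast is therefore a description too, and it does not compare the cells with other granulosa cells. However, 156, 217, 168 and 128 cells (12.42, 12.10, 12.16 and 11.95%) carried at least 2 of 6 endothelial, 2 of 6 macrophage or 3 of 6 perivascular markers. Most of these were endothelial by that count, at 126, 161, 121 and 91 cells, against 7, 23, 17 and 12 for macrophage and 29, 46, 39 and 31 for perivascular markers. Every endothelial and macrophage marker was present in every library. Their summed level was 335.0, 253.9, 260.7 and 225.7 CPM for endothelium and 54.0, 140.5, 117.1 and 103.6 CPM for macrophages, beside 4102, 3673, 4002 and 4074 CPM for the 8 granulosa markers. The macrophage sum was therefore lowest in the wild-type nonIR library. For this reason results are given with and without the cells that carried markers of other lineages. Of these cells, 62, 110, 77 and 58 also held all 4 granulosa genes of the rule. They are called cells of other lineages below for short, although their lineage was not settled. That exclusion, and the one that required 3 of 4 granulosa genes, were chosen after the data were seen.

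The 6 markers stood higher in these pregranulosa cells than in granulosa cells that met the same rule but held at least 200 CPM of Amh (887, 867, 1043 and 1193 cells). Because the rule divided the cells by Amh, this comparison is a description with no test. Across 12867 genes with at least 200 UMIs, 11.4% were at least 1.5-fold higher and 2.73% at least 1.5-fold lower in the Amh-low cells in all 4 libraries. All 6 markers were among the higher genes. Summed over the 6, the level was 1622, 2401, 2196 and 2127 CPM in Amh-low cells and 595.5, 756.4, 534.1 and 538.9 CPM in Amh-expressing cells. The same sum was at 1474, 1946, 1304 and 2003 CPM in transitional granulosa cells and at 2175, 3045, 1668 and 2145 CPM in stromal cells. The stromal sum was thus above that of the Amh-low cells in 3 of 4 libraries.

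Btg2 was at 739, 1085, 941 and 985 CPM in Amh-low cells and at 238, 352, 217 and 226 CPM in Amh-expressing cells, a median log2 difference of 1.88 over the 4 libraries. The lowest of the Amh-low values was thus above the highest of the Amh-expressing values. Junb was at 333, 479, 627 and 661 CPM against 144, 194, 154 and 178 CPM. Txnip was at 485, 554, 493 and 283 CPM against 204, 189, 154 and 116 CPM, and its Chek2-/- IR value was the lowest of the 4. Lgr5 was scarce, at 8.42, 9.82, 8.88 and 8.56 CPM, but nearly absent from Amh-expressing cells, where it was at 0.609, 0.513, 0.513 and 0.514 CPM. Gng13 was at 22.3, 24.4, 8.60 and 6.12 CPM against 3.601, 3.765, 2.61 and 1.36 CPM. Both Chek2-/- libraries were therefore below both wild-type libraries for Gng13, although the groups are single libraries. Cxcl10 varied most, at 33.9, 248.8, 117 and 184 CPM against 5.48, 17.1, 6.16 and 15.7 CPM.

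**Figure D1:**
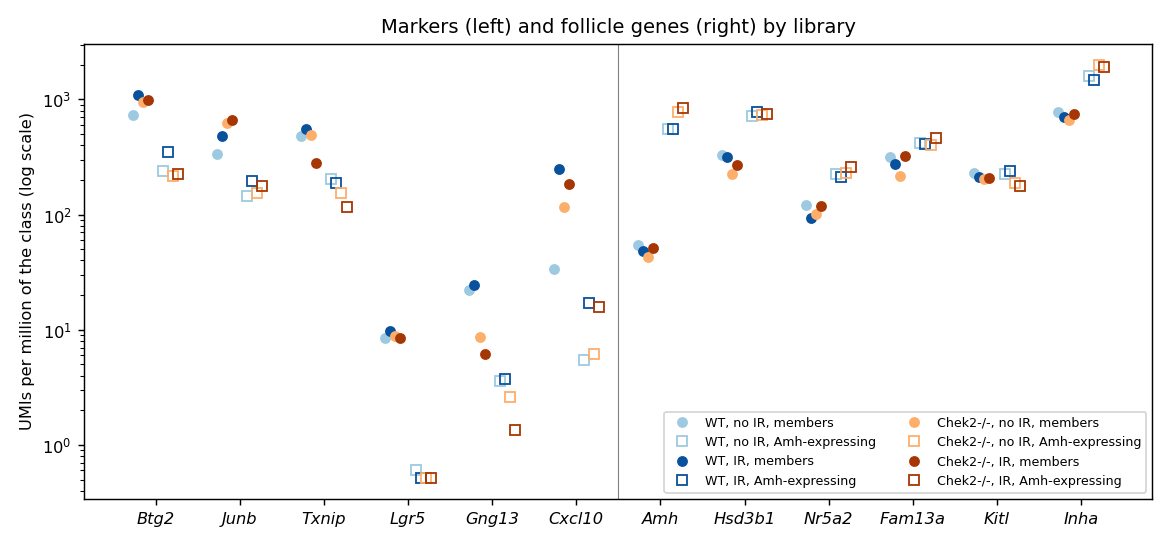
Level in CPM (log axis) of the 6 markers and of Amh, Hsd3b1, Nr5a2, Fam13a, Kitl and Inha in each of the 4 single-cell libraries, as filled points for the Amh-low pregranulosa cells and open squares for Amh-expressing granulosa cells. For each of the 6 markers the filled points lie above the open squares in every library, while Kitl differs little, at 205 to 232 CPM in Amh-low cells against 176 to 240 CPM.

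Genes of follicle activation ran the other way. Of 19 such genes with enough UMIs, 10 were at least 1.5-fold lower in Amh-low cells in all 4 libraries and none was higher, with a median log2 difference of -0.80. Amh, by which the rule divided the cells, was 1 of them, and without it 9 of 18 were lower (median log2 -0.67). Hsd3b1, an enzyme of steroid hormone synthesis, was at 327, 314, 227 and 271 CPM against 724, 777, 737 and 755 CPM. Inhba and Inhbb, which encode activin and inhibin subunits, differed by a median log2 of -1.29 and -1.77. Fam13a differed by less than 1.5-fold in at least 1 library, at 320, 272, 215 and 323 CPM against 422, 406, 405 and 461 CPM, and Slc18a3 was not detected in any library. Genes of the granulosa lineage, without the rule genes Foxl2 and Kitl, were higher in 5 of 17 cases and lower in none (median log2 0.27).

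Immediate early and quiescence genes, most of them transcription factors that respond within minutes to a stimulus, were often higher. The ovaries were dissociated with enzymes before the cells were captured, and the part of that step in the levels of these genes was not tested. Of 24, 16 were higher and none lower in all 4 libraries, against 11.4% of all genes (median log2 1.28), among them Klf2 (2.09), Klf4 (2.00) and Atf3 (2.65). After removal of the cells that carried markers of other lineages, 14 of 24 were above 1.5-fold in all libraries, with a median of 1.18, against 894 of 12461 genes overall (1470 of 12867 with those cells). The 2 genes lost were Ier3 and the cell cycle inhibitor Cdkn1c. The log2 differences of Cdkn1c then ran from 0.35 to 1.01. Genes of epithelial pregranulosa cells, the embryonic source of many primordial follicles, were higher in 7 of 14 cases (median log2 1.15), among them Krt18, a keratin of simple epithelia. Interferon-stimulated genes were higher for 14 of 39 and genes of TNF and NF-kB signalling for 12 of 22, but 8 of 39 and 6 of 18 without the cells of other lineages, beside the same 894 of 12461. All 6 endothelial markers (median log2 4.012) and all 6 macrophage markers (4.202) were also higher, in a comparison that holds the cells of other lineages. The 4 surface epithelium markers with enough UMIs were higher too (1.95), and all 4 stayed higher without the cells of other lineages (1.917). That exclusion set no limit on epithelial markers.

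Cells on either side of the Amh limit were alike in part. Between 150 and 200 CPM of Amh there were 129, 153, 102 and 101 cells, and between 200 and 250 CPM 97, 113, 82 and 93 cells. Btg2 was at 397.0, 603.8, 627.6 and 555.4 CPM just inside the limit and at 387.5, 524.4, 380.1 and 352.7 CPM just outside. Hsd3b1 was at 551.1, 615.4, 375.5 and 422.3 CPM inside and at 635.0, 681.9, 572.9 and 557.5 CPM outside. Cells just outside the limit thus had lower Btg2 and higher Hsd3b1 than those just inside, in each library. Txnip was also lower outside in each library, but by little in wild-type nonIR, at 284.5 CPM inside and 280.3 CPM outside. Junb was higher outside in wild-type nonIR, at 150 CPM inside and 174.8 CPM outside, and lower outside in the other 3 libraries.

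Single cells differed widely in the markers they held. Btg2 had a UMI in 84.4, 90.6, 89.9 and 88.7% of the Amh-low cells, and in 67.6, 80.1, 77.2 and 76.2% after each cell was thinned to 5000 UMIs to equalise depth. Lgr5 was found in 9.08, 10.4, 10.4 and 9.71%, or 3.12, 3.63, 3.93 and 3.05% of thinned cells, whereas it was found in 0.288, 0.114, 0.131 and 0.168% of thinned stromal cells, which are taken here as the background of free RNA. Gng13 was found in 16.6, 17.7, 9.19 and 7.38%, or 7.79, 8.03, 3.56 and 2.10% of thinned cells, against 0.961, 1.83, 1.05 and 1.18% of thinned stromal cells. The Gng13 shares of the Chek2-/- libraries were therefore nearer to that background than those of the wild-type libraries. Median depth in the stromal cells before thinning was 8798.5, 9369, 9179 and 8896.5 UMIs.

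Cells with both Lgr5 and Gng13, the pair that the study associates with epithelial pregranulosa cells, numbered 54, 80, 35 and 18, and cells with neither numbered 987, 1369, 1146 and 906. Median depth was 24393, 18841, 18411 and 15893.5 UMIs in cells with both, against 16226, 16369, 16527.5 and 15871.5 UMIs. The cells with both were thus deeper except in Chek2-/- IR, where the medians were close. Without the cells of other lineages the Chek2-/- IR medians were 15618 and 15837 UMIs. After thinning only 12, 21, 8 and 2 cells with both were left. Among 11768 genes, 4.06% were higher and 4.72% lower by 1.5-fold in all 4 libraries in cells with both, a description with no test. Krt19, an epithelial keratin and 1 of the 6 surface epithelium genes that the rule used to leave cells out, was at 61.2, 131, 77.1 and 367 CPM in cells with both and at 2.03, 7.06, 4.96 and 5.59 CPM in cells with neither. Epcam, an epithelial adhesion molecule, was at 54.6, 123, 117 and 204 CPM against 4.82, 6.55, 4.91 and 5.78 CPM. Both genes thus stood more than 10-fold higher in cells with both, in each library. Without the cells of other lineages, 477 of 11205 genes were higher and 264 lower, against 478 and 556 with them. Among the 10 genes then lowest in the cells with both were Inhba and the steroidogenic enzyme Cyp11a1, as well as the mast cell genes Cma1, Tpsb2 and Cpa3 and the globin genes Hbb-bt and Hbb-bs.

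The next comparison asked which genes differed 6 h after radiation in the Amh-low cells, whose place around oocytes was not observed. In wild-type Amh-low cells, 275 of 11095 genes were at least 1.5-fold higher after IR (2.48%) and 172 at least 1.5-fold lower (1.55%), with a median log2 ratio of -0.04 over all genes. In Chek2-/- cells, 60 of 10740 genes were higher (0.559%) and 49 lower (0.456%). The counts have no test, and the difference between genotypes was not tested in these cells. Targets of p53, interferon-stimulated genes, cholesterol synthesis genes and tubulin genes had the largest wild-type shares past the fold among the 13 lists of genes by function. UMIs were counted over both libraries, so some genes entered only through the IR library. With at least 100 UMIs in the nonIR library alone, cholesterol synthesis had 14 of 23 (median ratio 1.61) and interferon 18 of 30 (1.61). Targets of p53 then had 11 of 21 (1.57) and tubulin and actin 6 of 13 (1.46). The lists were chosen with earlier results of these data known.

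**Figure D2:**
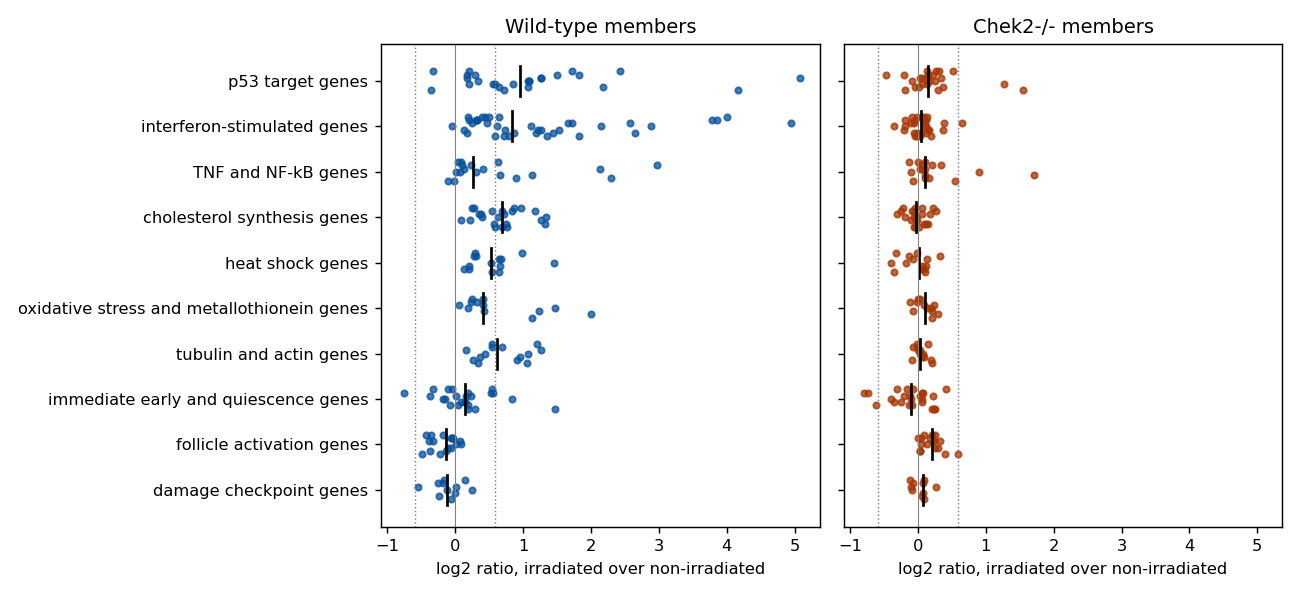
Ratio of IR to nonIR CPM in Amh-low pregranulosa cells on a log2 axis, 1 point per gene with at least 200 UMIs, for 10 gene lists in wild-type and Chek2-/- cells. Black bars are list medians and dotted lines mark 1.5-fold. The wild-type median of the p53 targets lies at 0.96 and that of the interferon-stimulated genes at 0.83. In Chek2-/- cells these medians lie at 0.15 and 0.05. UMIs are counted over both libraries of a genotype, so some genes enter only through the library where they are high.

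Of 26 p53 target genes, 16 were past 1.5-fold upward and none downward in wild-type cells (median ratio 1.94). Cdkn1a, which encodes the p21 inhibitor of the cell cycle, was at 4.82, 86.9, 4.32 and 12.6 CPM, an 18.01-fold wild-type ratio (interval 14.9 to 22.0) and a 2.92-fold Chek2-/- ratio (2.32 to 3.69). It was high in wild-type IR alone and was low in both nonIR libraries. Bax, an effector of apoptosis, was at 112, 270, 107 and 136 CPM (2.40-fold and 1.26-fold), and Bbc3, which encodes the apoptotic activator PUMA, was at 13.6, 28.7, 16.2 and 19.4 CPM. Bax and Bbc3 were thus also highest in wild-type IR. Ccng1 was at 15.4, 69.5, 17.4 and 22.5 CPM (4.51-fold and 1.29-fold). Phlda3, an inhibitor of Akt, was at 39.0, 110, 45.8 and 54.9 CPM, and Mdm2, the ligase that degrades p53, was at 39.2, 64.3, 41.5 and 42.2 CPM. Mdm2 had the smallest of these wild-type ratios, 1.64. Eda2r, a receptor of the TNF family, was almost absent outside the wild-type IR library, with 4, 197, 3 and 15 UMIs. It reached 200 UMIs only through the library where it was high, as other genes of this list did. With at least 100 UMIs required of the nonIR library alone, a limit chosen after the data were seen, 11 of 21 p53 targets were past the fold in wild-type cells (median ratio 1.57), against 201 of 10772 genes upward.

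In Chek2-/- cells 2 of 24 p53 targets were past the fold, Cdkn1a and Gdf15 (median ratio 1.11). Gdf15, a stress-induced cytokine, was at 3.29, 6.91, 2.97 and 7.16 CPM, so that its ratio was 2.10 in wild-type and 2.41 in Chek2-/- cells. Without the cells of other lineages the Gdf15 values were 2.995, 5.737, 2.562 and 4.485 CPM, and Cdkn1a was at 3.20, 79.7, 2.24 and 9.03 CPM, ratios of 24.9 and 4.04. Both genes then had under 200 UMIs in the Chek2-/- libraries, and of the 21 targets counted there Dcxr (1.89) was higher and Ddit4 (0.647) lower. The share of cells with a Cdkn1a UMI was 4.38, 43.5, 4.197 and 9.52%, or 2.46, 26.6, 1.41 and 3.72% after thinning. A large part of the wild-type IR cells thus held no Cdkn1a UMI at this depth, which does not show that they lacked the transcript.

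Interferon-stimulated genes were past the fold in 25 of 38 cases in wild-type cells (median ratio 1.78), and none was lower. With the limit on the nonIR library alone these were 18 of 30 (1.61). Isg15, a ubiquitin-like modifier, was at 10.8, 67.7, 10.7 and 10.6 CPM, a wild-type ratio of 6.28 and a Chek2-/- ratio of 0.99. Ifit1, which binds foreign RNA, was at 1.75, 28.2, 1.59 and 0.830 CPM, a 16.1-fold wild-type ratio (11.7 to 22.7). Both were thus high in wild-type IR alone. Ifitm3, a membrane protein that restricts viral entry, was at 83.5, 152, 83.4 and 85.1 CPM, but at 20.5, 100.2, 23.1 and 27.5 CPM without the cells of other lineages, which moved its wild-type ratio from 1.82 to 4.89. Cxcl10 did not follow this order: it was already higher in Chek2-/- nonIR than in wild-type nonIR cells, by 3.46-fold (3.20 to 3.75). Its ratio after IR was 7.35 (6.83 to 7.92) in wild-type and 1.57 (1.49 to 1.65) in Chek2-/- cells, where it was the only 1 of 29 interferon-stimulated genes past the fold (median ratio 1.04).

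The promoters of Cxcl10, Isg15 and Ifit1 are shown beside that of Btg2, as examples and not for the whole interferon group. Each line gives the 250 bases before the gene start from RefSeq on GRCm38.p6, in the direction of transcription, with matches of 5 searched motifs in capitals on either strand: AAANNGAAA (the core of the interferon-stimulated response element), TGANTCA (AP-1), TGACGTCA (the cyclic AMP response element), TATAAA and CATATTAG (the serum response element core). Cxcl10 (chr5:92348890-92349139, minus strand) held the interferon element core and an AP-1 match. Isg15 (chr4:156200819-156201068, minus strand) held 3 overlapping interferon element cores. Ifit1 (chr19:34640639-34640888, plus strand) held 2, both read from the opposite strand. Btg2 (chr1:134079156-134079405, minus strand) held the cyclic AMP response element.
Cxcl10: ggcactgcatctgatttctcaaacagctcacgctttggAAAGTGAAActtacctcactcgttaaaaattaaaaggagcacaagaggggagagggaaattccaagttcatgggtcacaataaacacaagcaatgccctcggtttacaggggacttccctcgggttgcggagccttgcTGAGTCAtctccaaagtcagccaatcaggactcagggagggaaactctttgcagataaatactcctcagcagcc
Isg15: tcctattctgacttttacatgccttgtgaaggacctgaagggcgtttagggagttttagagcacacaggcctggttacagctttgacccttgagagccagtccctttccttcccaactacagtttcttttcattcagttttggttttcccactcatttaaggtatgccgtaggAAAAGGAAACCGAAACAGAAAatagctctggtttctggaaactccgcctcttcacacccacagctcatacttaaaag
Ifit1: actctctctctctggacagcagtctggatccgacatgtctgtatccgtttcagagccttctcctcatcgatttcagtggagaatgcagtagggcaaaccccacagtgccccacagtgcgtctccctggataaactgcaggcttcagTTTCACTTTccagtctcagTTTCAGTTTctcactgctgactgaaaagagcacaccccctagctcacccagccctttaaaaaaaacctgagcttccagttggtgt
Btg2: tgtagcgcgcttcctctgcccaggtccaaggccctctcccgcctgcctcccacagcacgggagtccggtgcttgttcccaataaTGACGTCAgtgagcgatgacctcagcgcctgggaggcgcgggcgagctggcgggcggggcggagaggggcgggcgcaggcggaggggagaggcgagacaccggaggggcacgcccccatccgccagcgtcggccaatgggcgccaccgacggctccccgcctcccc
Windows of 300 bases were available for 27025 genes, and AAANNGAAA was in a window of 12.1% of them and in 10.6% of all 32851 windows. It was in 21 of the 36 interferon-stimulated genes with a window, in 15 of the 20 that were past the fold in wild-type cells and had a window, and in 1 of 26 p53 targets. A match of letters is a description and not a bound site.

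Cxcl10 was held by a small set of cells. The tenth of cells with the most Cxcl10 held 100, 94.0, 94.99 and 88.4% of its UMIs, against 43.2, 39.3, 34.9 and 38.6% for Btg2. Among cells without markers of other lineages, those with at least 10 Cxcl10 UMIs, a division chosen after the values were seen, numbered 20, 126, 87 and 104 (1.82, 7.99, 7.17 and 11.03%). They had Btg2 at 1410, 1503, 1551 and 1617 CPM, against 688, 995, 878 and 868 CPM in the remaining cells. Cells rich in Cxcl10 were thus also rich in Btg2, in each library. Nfkbia, an inhibitor and target of NF-kB, was at 205, 355, 336 and 341 CPM against 72.6, 82.6, 104.8 and 106 CPM. Inha was lower in them, at 639, 260, 284 and 348 CPM against 855, 827, 749 and 878 CPM. Depth differed little between the 2 sets outside wild-type nonIR, with medians of 19844, 16800.5, 16627 and 16643.5 UMIs against 16156, 16383, 16330 and 15793 UMIs.

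Cells with an Ifit1 UMI made a further division. There were 7, 188, 6 and 2 such cells without markers of other lineages (0.636, 11.9, 0.494 and 0.212%). In the wild-type IR library they had Isg15 at 262 CPM against 23.4 CPM in cells without Ifit1 and Ifitm3 at 251 against 72.3 CPM. Cdkn1a was at 69.9 CPM against 81.5 CPM and Bax at 241 against 270 CPM. Isg15 and Ifitm3 were thus higher in the cells with Ifit1, and Cdkn1a and Bax were not. The Ifit1 cells were deeper, at a median of 18951.5 against 16186 UMIs. Over all Amh-low cells, Ifit1 had a UMI in 1.43, 12.4, 1.52 and 0.747%, or 0.574, 6.92, 0.445 and 0.286% after thinning, whereas thinned stromal cells had it in 0.192, 0.343 and 0.131% in the first 3 libraries and in no cell of Chek2-/- IR, which allows a share of up to 0.504%.

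**Figure D3:**
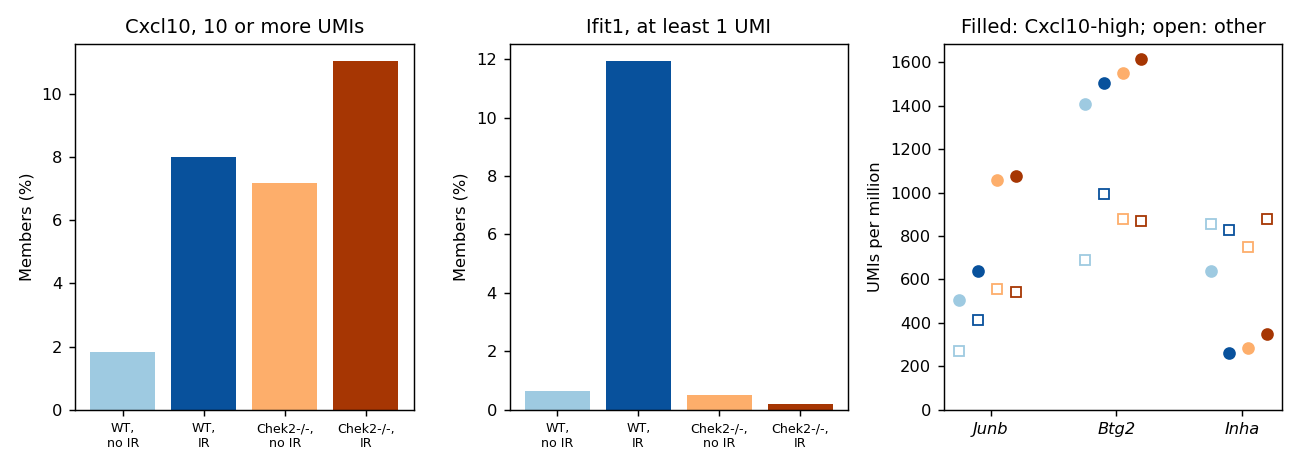
Amh-low pregranulosa cells without markers of other lineages in the 4 single-cell libraries: bars give the percentage with at least 10 Cxcl10 UMIs (left) and with an Ifit1 UMI (middle), and points (right) give Junb, Btg2 and Inha in CPM, filled for cells with at least 10 Cxcl10 UMIs and open for the others, in the bar colours. Cells with Ifit1 make up 11.9% of wild-type IR and at most 0.636% of the other libraries, and cells high in Cxcl10 have higher Junb and Btg2 and lower Inha in all 4 libraries.

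The macrophage markers, like the interferon genes, were higher in wild-type IR (140.5 CPM summed) than in wild-type nonIR cells (54.0 CPM). They were at 117.1 and 103.6 CPM in the Chek2-/- libraries, where Isg15 and Ifit1 were low and Cxcl10 was at 117 and 184 CPM. The part of macrophages in the interferon values was not tested. Nor was that of surface epithelial cells. In wild-type IR, Krt19 was at 55.3 CPM in cells with an Ifit1 UMI and at 11.8 CPM in cells without it, markers of other lineages excluded. Ccl4, a macrophage chemokine, had the largest wild-type ratio, from 4 to 416 UMIs, and without the cells of other lineages it was at 0, 1.82, 0.0466 and 0.121 CPM. Isg15 without those cells was at 4.39, 60.7, 4.75 and 4.36 CPM, a 13.8-fold wild-type ratio, and Ifit1 had a ratio of 26.7. Both ratios were thus larger without them. Cxcl10 was at 30.3, 245, 125 and 196 CPM (8.10-fold and 1.58-fold). The interferon list then had 27 of 35 genes past the fold, with a median ratio of 2.03.

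Genes of TNF and NF-kB signalling were past the fold in 7 of 18 cases in wild-type cells, and none was lower (median ratio 1.21). With the limit on the nonIR library alone these were 4 of 15 (1.09), so part of the count rested on genes that were scarce before IR. Tnfrsf12a, the receptor for the cytokine TWEAK, was at 8.24, 64.4, 8.60 and 9.29 CPM, ratios of 7.81 (6.72 to 9.11) and 1.08. Sdc4, a cell surface proteoglycan, was at 294, 548, 315 and 339 CPM. Both were high in wild-type IR alone. In contrast the neutrophil chemokines Cxcl1 (13.3, 29.3, 38.0 and 71.0 CPM) and Cxcl2 (1.89, 9.28, 4.88 and 15.98 CPM) were higher after IR in both genotypes, with ratios of 1.87 and 3.28 in Chek2-/- cells, the 2 of 17 genes past the fold there. Without the cells of other lineages these Chek2-/- ratios were 1.92 and 1.80 (1.414 to 2.295), and 4 of 14 wild-type genes were past the fold.

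Cholesterol synthesis genes, which SREBP2 switches on together when sterols are low, were past the fold in 14 of 23 cases in wild-type cells (median ratio 1.61) and in 0 of 23 in Chek2-/- cells (0.982). Hmgcs1, an early enzyme of the pathway, was at 109, 195, 111 and 105 CPM. Msmo1, a later oxidase, was at 99.7, 181, 93.7 and 109 CPM. Both enzymes were thus level in the other libraries and higher in wild-type IR by similar ratios. Idi1, an isomerase of the pathway, had a wild-type ratio of 2.54. The counts were the same, 14 of 23, without the cells of other lineages.

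Heat shock genes were past the fold in 6 of 14 cases (median ratio 1.45), oxidative stress and metallothionein genes in 4 of 12 (1.33) and tubulin and actin genes in 7 of 14 (1.54) in wild-type cells, and none of the 3 lists had a gene past the fold in Chek2-/- cells. Hspb1, a small heat shock protein, was at 92.8, 254, 151 and 133 CPM. Mt1, which binds zinc and copper, was at 56.0, 224, 74.1 and 90.8 CPM, a 4.003-fold wild-type ratio. Hmox1, which breaks down heme, was at 91.0, 214, 106 and 101 CPM, but at 66.4, 118.0, 57.6 and 59.0 CPM without the cells of other lineages (wild-type ratio 1.78 in place of 2.35). For each of these 3 genes wild-type IR was the highest library. Tubb4b, a tubulin, was at 138, 267, 153 and 156 CPM.

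Genes of follicle activation and of the granulosa lineage were counted after IR without Amh, Foxl2 and Kitl, whose levels the rule set in part. In wild-type cells 0 of 16 activation genes and 2 of 17 lineage genes, Wnt4 and Bmp2, were past the fold, against 2.48% higher and 1.55% lower among all genes. Wnt4, a ligand that directs ovarian development, was at 90.5, 155, 68.6 and 76.5 CPM. Foxl2, the transcription factor that maintains granulosa identity and a gene of the rule, was at 424, 299, 413 and 391 CPM, a wild-type ratio of 0.706 that did not reach the fold. Of 17 genes of signals between pregranulosa cells and oocytes, 2 were higher (Bmp2 and Wnt4) and 3 lower (Dll4, Hey1 and Hey2) in wild-type cells, with a median ratio of 0.983. Kitl was again the gene of the rule among them, and the counts were 2 and 3 of 16 without it. Dll4 rested on the cells of other lineages, as it had 8 and 3 wild-type UMIs without them. The Notch target genes Hey1 (81.0, 51.5, 85.9 and 86.6 CPM) and Hey2 (46.0, 26.6, 69.5 and 65.0 CPM) were lower in wild-type IR, with ratios of 0.637 and 0.579, whereas Heyl, Jag1 and Notch2 were at 0.858, 0.983 and 1.08. Oocytes signal to pregranulosa cells through Notch, and oocyte genes in these cells summed to 63.9, 31.9, 23.6 and 41.5 CPM, so that wild-type nonIR held the most; the part of oocyte RNA in these values was not tested. Genes of the damage checkpoint had 0 of 11 past the fold (median ratio 0.918).

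Of the 24 immediate early and quiescence genes, Gadd45b and Ier3 were higher and Fosb was lower in wild-type cells, and Dusp1, Fosb and Txnip were lower in Chek2-/- cells. Btg2 and Junb stayed just under the fold, with wild-type ratios of 1.47 (1.442 to 1.496) and 1.44 and Chek2-/- ratios of 1.05 each. Without the cells of other lineages, however, Junb was past the fold in wild-type cells, at a ratio of 1.57 (1.521 to 1.623), and 3 of the 24 genes were higher. Fosb, an AP-1 subunit, was at 226, 134, 249.3 and 150 CPM, and so was lower after IR in both genotypes. Txnip had a ratio of 1.14 in wild-type and 0.575 (0.557 to 0.593) in Chek2-/- cells. Its Chek2-/- ratio was also below 1 in the other classes, at 0.754 in Amh-expressing, 0.736 in dividing and 0.579 in stromal cells. Lgr5 had ratios of 1.17 (0.973 to 1.402) and 0.964 (0.784 to 1.18), both intervals holding 1. Gng13 had ratios of 1.10 (0.980 to 1.23) and 0.712 (0.564 to 0.895).

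Some of the largest ratios rested on few cells or on other lineages. Among the 10 highest genes of Chek2-/- cells, the melanocyte genes Dct and Pmel and the chemokine Ccl21a had 99.0, 96.2 and 98.2% of their Chek2-/- IR UMIs in 1 cell each. Mcpt4, a mast cell protease with the lowest Chek2-/- ratio, had 63.2% of its nonIR UMIs in 1 cell. The oocyte genes Nlrp5, Gdf9, Dppa3 and Nlrp14 were among the 10 lowest in wild-type cells, as was Vwf, an endothelial gene. These genes are therefore given as features of the sampled cells in each library.

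The 2 subsets by Lgr5 and Gng13 had ratios after IR of the same order for some genes in wild-type cells and not for others. Btg2 and Junb were past the fold in cells with both, at 2.17 (1.995 to 2.357) and 2.16 (1.874 to 2.485), and under it in cells with neither, at 1.36 and 1.35. Once the cells of other lineages were left out, Junb was past the fold in cells with neither as well, from 276.5 to 419.2 CPM. Btg2 was still under it there, from 680.8 to 957 CPM. Cxcl10 had a ratio of 8.01 (6.51 to 9.95) in cells with both and 8.14 (7.34 to 9.05) in cells with neither. Mt1 started from 265 CPM in cells with both and from 36.1 CPM in cells with neither, yet its ratios were 3.49 and 3.40. Similar ratios thus came from different starting levels. They were less alike after the cells of other lineages were left out. Cxcl10 then went from 57.7 to 428.8 CPM in cells with both and from 17.4 to 183.6 CPM in cells with neither. Mt1 went from 242.4 to 877.4 CPM and from 26.5 to 122 CPM. Tnfrsf12a differed more, from 7 to 218 UMIs in cells with both (ratio 20.3, interval 9.70 to 51.2) and with a ratio of 6.51 (5.504 to 7.753) in cells with neither. Cdkn1a rested on 2 UMIs before IR in cells with both, with a ratio of 63.0 (17.2 to 524), against 15.4 (12.6 to 19.0). Without the cells of other lineages, Ifitm3 went from 20.2 to 183.3 CPM in cells with both and from 19.1 to 89.95 CPM in cells with neither.

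Across classes of cells the responses differed by gene. Cdkn1a had a wild-type ratio of 18.01 in Amh-low cells, 42.0 in Amh-expressing, 8.45 in dividing granulosa and 17.1 in stromal cells. Tnfrsf12a was at 7.81, 1.98, 1.98 and 1.33 in the same classes and at 3.62 in surface epithelial cells. Mt1 was at 4.003, 1.21, 2.51 and 1.82. Tnfrsf12a and Mt1 thus had larger ratios in Amh-low cells than in these classes, by intervals of counting error and with no test over samples. Isg15 had a larger ratio in Amh-expressing cells (19.1), where it began at 1.27 CPM, and surface epithelial cells reached the highest level of it, from 39.5 to 709 CPM. Cxcl10 was at 3.25 CPM before and 332 CPM after IR in surface epithelial cells (6 UMIs before IR). Btg2 had ratios of 1.47, 1.48, 1.34 and 1.57 in Amh-low, Amh-expressing, dividing and stromal cells, so it was nearly equal in each.

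**Figure D4:**
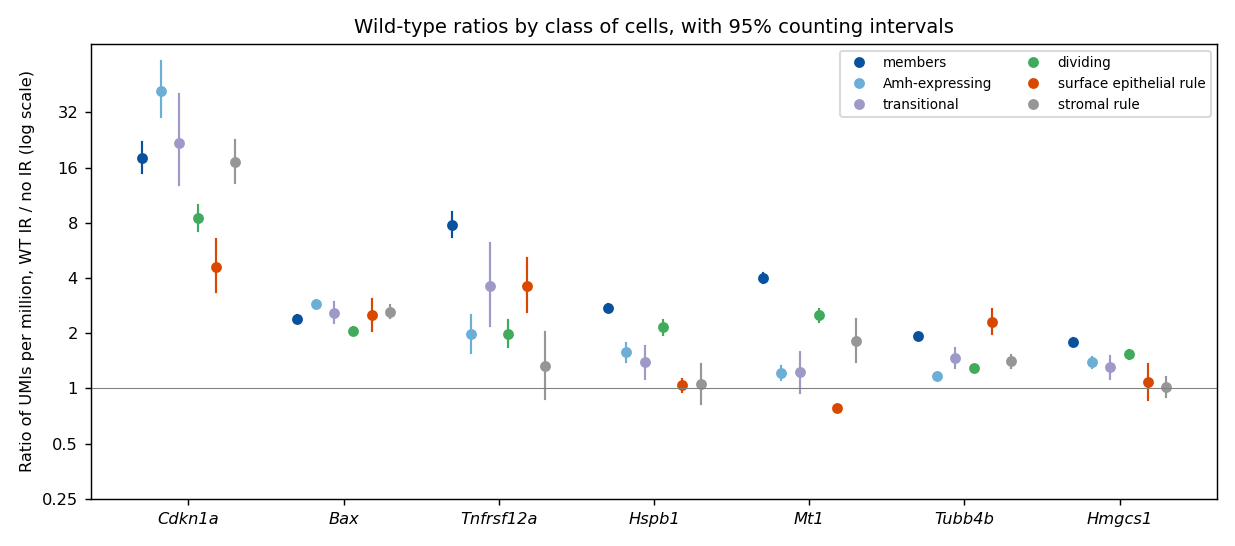
Wild-type IR over nonIR ratio of CPM (log axis) for 7 genes in Amh-low pregranulosa, Amh-expressing, transitional, dividing, surface epithelial and stromal cells; lines are 95% exact counting intervals, with 1 library per condition. Tnfrsf12a is at 7.81 and Mt1 at 4.003 in Amh-low cells, the highest of the 6 classes drawn, while Cdkn1a is highest in Amh-expressing cells at 42.0.

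The bulk libraries gave the replicated test of radiation in the whole ovary, of which pregranulosa cells are a part, so that fewer cells of a type and less RNA per cell cannot be told apart there. A gene was called if it changed at least 2-fold and its p from edgeR (quasi-likelihood), adjusted over 26790 genes by Benjamini-Hochberg, did not exceed 0.05. In wild-type ovaries 0.859% of genes were called higher and 0.216% lower after IR. In Chek2-/- ovaries 0.00373% were called higher (1 gene, Ano3, with a log2 change of 1.87 ± 0.25 and an adjusted p of 0.00579, named after its value was seen) and 0% lower. By DESeq2 these were 3 higher and 6 lower, and 611 genes were lower and 568 higher at an unadjusted p under 0.05. The difference between the genotypes was called for 0.131% of genes upward and 0.493% downward. Chek2 was at a median of 22.5 and 21.3 CPM in wild-type groups and 3.72 and 4.05 CPM in Chek2-/- groups, with no overlap between genotypes.

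Of the 6 markers, Btg2 alone was called. It lay between 26.0 and 35.5 CPM (median 30.8) in wild-type nonIR, 51.3 and 77.1 (61.9) in wild-type IR, 32.4 and 57.7 (44.4) in Chek2-/- nonIR and 34.7 and 60.0 (38.9) in Chek2-/- IR libraries. The wild-type groups did not overlap, whereas the Chek2-/- groups did. Its log2 change was 1.02 ± 0.14 (SE, n = 6 per group, edgeR adjusted p = 4.01e-05) in wild-type and -0.11 ± 0.14 (adjusted p = 1) in Chek2-/- ovaries, and the difference was -1.13 ± 0.20 (adjusted p = 0.00224). Its change was near the 2-fold limit, and it fell under that limit when wild-type nonIR replicate 3 (log2 1.00), wild-type nonIR replicate 4 (0.99) or wild-type IR replicate 4 (0.96) was left out.

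Junb ranged from 24.3 to 47.5 CPM in wild-type nonIR and from 28.1 to 54.0 CPM in wild-type IR libraries (log2 0.30 ± 0.20, edgeR adjusted p = 0.647). Txnip, at medians of 318, 347, 279 and 250 CPM, was not called in either genotype (log2 0.14 and -0.15, adjusted p = 0.521 and 1), and its difference was -0.28 ± 0.11 (adjusted p = 0.319). Lgr5 had medians of 27.5, 27.6, 28.4 and 29.9 CPM and Gng13 of 2.44, 2.73, 1.18 and 1.21 CPM. Neither was called, and the groups overlapped for both. Cxcl10 had medians of 3.63, 6.85, 15.7 and 10.9 CPM, but single libraries reached 44.5 CPM in wild-type nonIR and 124.7 CPM in Chek2-/- IR. Its log2 change was -0.32 ± 0.76 (edgeR adjusted p = 0.958) in wild-type and 0.97 ± 0.74 (adjusted p = 1) in Chek2-/- ovaries. Without these libraries the direction turned: the wild-type change was 1.01 without nonIR replicate 5 (adjusted p = 0.674), and the Chek2-/- change was -0.36 without IR replicate 6 (adjusted p = 0.993).

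**Figure D5:**
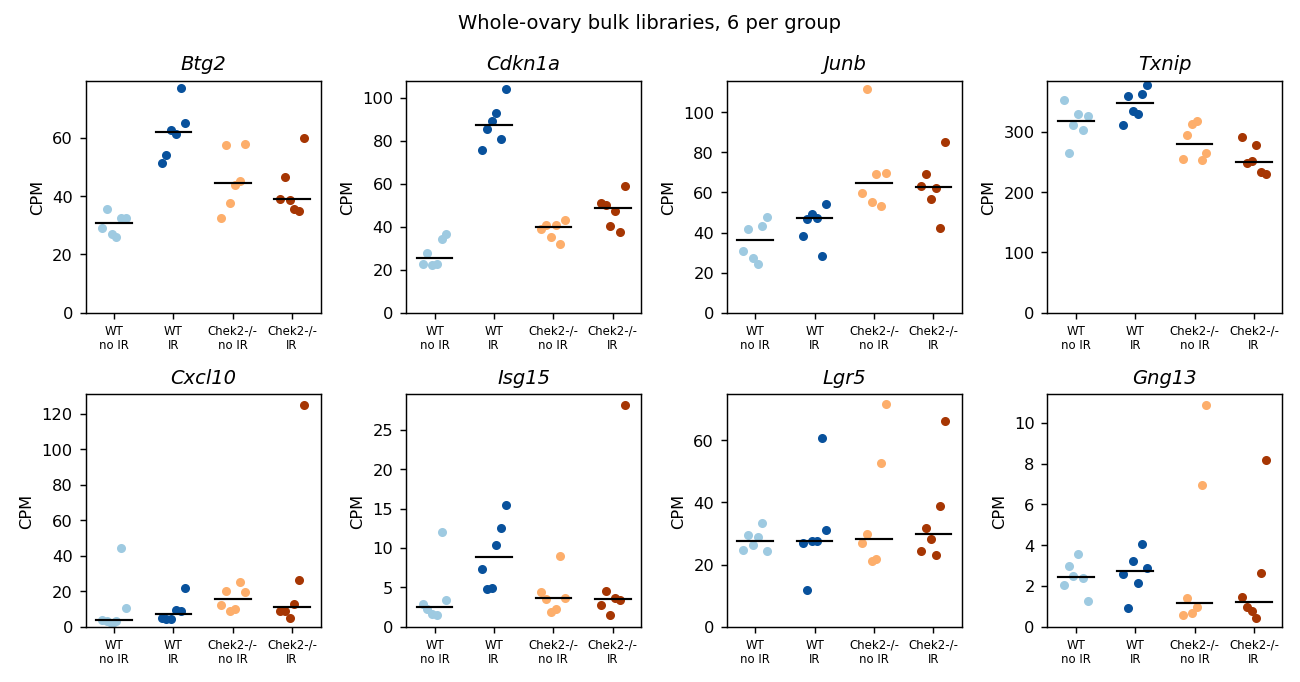
Bulk CPM (linear axes from 0) of Btg2, Cdkn1a, Junb, Txnip, Cxcl10, Isg15, Lgr5 and Gng13 in each of the 6 libraries of the 4 groups, with the group median in black. The wild-type nonIR and IR libraries of Btg2 and Cdkn1a do not overlap, while 1 wild-type nonIR and 1 Chek2-/- IR library lie far above their groups for Cxcl10 and Isg15.

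The p53 targets, of which Btg2 is 1, were called higher in 14 of 32 cases in wild-type ovaries, against 0.859% of all genes (median log2 0.83 and -0.0041) and in 0 of 32 in Chek2-/- ovaries by edgeR, with 9 at an unadjusted p under 0.05 and 0 by DESeq2. The difference between genotypes was called for 13 of them, all lower in Chek2-/-. Cdkn1a lay between 22.0 and 36.6 CPM in wild-type nonIR, 75.5 and 103.9 in wild-type IR, 31.8 and 43.0 in Chek2-/- nonIR and 37.3 and 59.0 in Chek2-/- IR libraries. The wild-type groups were thus wholly separate. Its log2 change was 1.67 ± 0.13 (edgeR adjusted p = 2.48e-09), with a difference of -1.36 ± 0.18 (adjusted p = 5.36e-05) between genotypes. Ccng1 changed by 2.03 ± 0.05 in wild-type and 0.56 ± 0.05 in Chek2-/- ovaries (edgeR adjusted p = 2.61e-19 and 6.82e-07), the second under 2-fold. Bax changed by 0.60 ± 0.06 (adjusted p = 2.38e-07), also under 2-fold. These are whole-ovary values, and the share that pregranulosa cells give to them was not tested.

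The groups of genes that were past the fold in pregranulosa cells were otherwise not called in bulk by edgeR. Over all genes, 0.859% were called higher in wild-type ovaries, so a count of 0 in a short list does not show that it was unchanged. At an unadjusted edgeR p under 0.05, 1540 of 26790 genes were higher and 1519 lower. Of 46 interferon-stimulated genes, 0 were called in wild-type ovaries by edgeR, with 11 higher at an unadjusted p under 0.05 and 1 by DESeq2 (median log2 0.51). Isg15 ranged from 1.49 to 12 CPM in wild-type nonIR and from 4.74 to 15.4 CPM in wild-type IR libraries (log2 1.21 ± 0.61, edgeR adjusted p = 0.475). Without wild-type nonIR replicate 5, the highest of its group, the Isg15 change was 1.99 (adjusted p = 0.116), and 3 interferon-stimulated genes were called, with a median of 0.82; 3 were also called without Chek2-/- IR replicate 6, and the cause was not tested. Macrophage markers summed to medians of 23.7, 30.0, 21.8 and 25.5 CPM in the 4 bulk groups, with overlapping ranges, and their part in these values was not tested. In Chek2-/- ovaries 0 of 46 were called, with 1 at an unadjusted p under 0.05 and 0 by DESeq2, and the median moved from 0.38 to -0.15 without replicate 6 of the IR group. Of cholesterol synthesis genes 0 of 24 were called in wild-type ovaries (4 higher and 1 lower at an unadjusted p under 0.05, 0 by DESeq2), of heat shock genes 0 of 14 (0 and 0), of oxidative stress genes 0 of 13 (0 and 0), of tubulin and actin genes 0 of 14 (2 and 0) and of TNF and NF-kB genes 0 of 25 (1 and 0). Tnfrsf12a, 7.81-fold higher in pregranulosa cells, had a bulk log2 change of 0.06 ± 0.15 (edgeR adjusted p = 0.963), Mt1 of 0.32 ± 0.17 (adjusted p = 0.532) and Hmgcs1 of 0.10 ± 0.09 (adjusted p = 0.764).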

How the data were processed

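Single-cell values are UMI counts that the authors deposited after Cell Ranger on mm10, as filtered matrices before their own limits on cells; of 40594 barcodes, 38274 passed at least 1000 genes and at most 20% mitochondrial UMIs, and none exceeded 50% ribosomal UMIs. Bulk values are the deposited estimated counts per gene, which the authors made with Salmon (v1.3.0) and which were rounded here. Members were rebuilt by the rule above, and Amh-expressing cells by the same rule with Amh at 200 CPM or more. Transitional cells met the rule but held at least 3 transitional genes. Dividing cells held at least 4 division genes, with no limit on Amh. Surface epithelial cells held at least 4 epithelial genes, with no limit on Amh or granulosa genes. Stromal cells held stromal genes above a set share and fewer than 2 granulosa genes. The members and the gene lists were chosen with earlier results of these data known. UMIs were summed per library and scaled to CPM. Ratios between single libraries carry 95% exact Poisson (conditional binomial) intervals and no test, for genes with at least 200 UMIs. Doublets called with Scrublet in scanpy (v1.11.5), 4.28 to 5.69% of passing barcodes and 0.796 to 1.39% of the members, were kept, with removal as an alternative. Totals were 182774110 to 209716655 UMIs per single-cell library and 17824920 to 32605519 counts per bulk library.

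Bulk genes with at least 10 counts over 24 libraries were tested with edgeR (v4.0.16, quasi-likelihood, TMM scaling, all 4 groups in 1 fit). DESeq2 (v1.42.0), other scalings and filters, a replicate block, thinning to 5000 UMIs, other limits on cells and leaving out libraries were alternatives, and 2 exclusions of cells and a limit on nonIR UMIs were added after the data were seen. Replicates differed by more than counting noise (chi-square per degree of freedom 4.62 to 41.1), and p-values measure the spread between them. Named genes were the markers, the genes the study names for these cells, Chek2, the 10 highest and 10 lowest ratios per comparison and members of the lists. Statistical scripts were tested on simulated data. Results for a few genes are not reported here.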

Additional observations from a re-analysis of the deposited data

Results flagged for a closer look

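Within the bulk groups of 6 libraries, the highest library stood apart from the rest by Dixon's 95% criterion in 15 of 88 groups of values examined, where chance flags about 1 in 20 groups. Replicate 6 of Chek2-/- IR accounted for 7 of these, at 66.4 CPM for Lgr5, 8.19 for Gng13, 124.7 for Cxcl10, 173.0 for Ifitm3, 28.2 for Isg15, 35.9 for Ifit1 and 484 for Wnt4. For Lgr5 and Gng13, Chek2-/- nonIR replicate 6 was higher still, at 71.8 and 10.9 CPM, and nonIR replicate 5 was at 52.6 and 6.94 CPM. These nonIR values were not flagged, as the criterion uses the gap to the next value. Replicate 5 of wild-type nonIR stood high for Cxcl10 (44.5 CPM), Isg15 (12) and Ifit1 (21.8). Replicate 6 of wild-type IR was high for Cxcl10 (21.8 CPM), replicate 2 of Chek2-/- nonIR for Junb (111.5) and replicate 5 of Chek2-/- nonIR for Isg15 (8.95). Replicate 6 of Chek2-/- nonIR was high for Ifitm3 (115.1 CPM) and Hmgcs1 (208.9).

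The bulk response to IR differed between genotypes, by the interaction term of edgeR's quasi-likelihood fit (n = 6 per group, Benjamini-Hochberg adjusted), for 7 named genes, each with a smaller log2 change in Chek2-/- ovaries. The log2 differences were -1.13 for Btg2 (adjusted p = 0.00224), -1.36 for Cdkn1a (5.36e-05), -1.47 for Ccng1 (8.12e-13), -1.44 for Bbc3 (8.06e-06) and -1.31 for Mdm2 (4.1e-11). They were -0.85 for Phlda3 (edgeR adjusted p = 3.69e-05) and -0.48 for Bax (0.00224).

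In the single-cell libraries 4 named genes were past 1.5-fold in opposite directions in the 2 genotypes; the difference was not tested, with 1 library per condition. The oocyte genes Dppa3 and Padi6 had IR over nonIR ratios of 0.446 and 0.486 in wild-type and 1.83 and 2.21 in Chek2-/- pregranulosa cells. The immediate early genes Arc and Egr3 had ratios of 3.73 and 1.75 in wild-type and 0.449 and 0.512 in Chek2-/- cells.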

How the results depend on the processing

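Counts of cells and genes depended on the limits used. The members per library, 5503 in all, became 3073 when no Amh UMI was allowed and 3127 at a limit of 10% mitochondrial UMIs. Of genes past 1.5-fold after IR, 447 in wild-type and 109 in Chek2-/- cells, 219 and 36 were past it with cells thinned to 5000 UMIs, 701 and 235 at a minimum of 100 UMIs, 236 and 37 at 500 UMIs, and 131 and 21 at 2-fold. The 1821 genes that differed from Amh-expressing cells became 1037 after thinning. The 1034 that differed between cells with both Lgr5 and Gng13 and cells with neither became 667 with detection after thinning (562 higher and 105 lower, against 478 and 556). Only 12, 21, 8 and 2 thinned cells held both, with 10000 UMIs in all in Chek2-/- IR. Because 0.5 was added to each count, an absent gene could then score as higher, so this split is no check of the main counts. Wild-type cells had 275 higher and 172 lower genes, but 273 and 311 with no Amh UMI and 324 and 118 with TMM scaling; Chek2-/- cells had 60 and 49, but 48 and 71 at 10% mitochondrial UMIs. With at least 100 UMIs in the nonIR library alone these were 201 and 187 in wild-type and 46 and 67 in Chek2-/- cells. Without the cells of other lineages, ratios turned direction to 1.48 for H2-Aa, 1.37 for Cd74 and 1.44 for H2-Ab1 in wild-type and 1.63 for Ren1 in Chek2-/- cells. With 3 of 4 granulosa genes required, H2-Ab1 was at 1.09 in wild-type and Ccl4 at 0.728 in Chek2-/- cells, and at 10% mitochondrial UMIs Mcpt4 was at 5.20. The causes were not tested.

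In bulk, 288 wild-type genes, 1 Chek2-/- gene and 167 differences between genotypes were called. With the replicate number as a block these were 262, 1 and 147. Same-numbered samples were not shown to be pairs, since their deviations correlated by -0.101 to 0.418 over all pairs of groups. Within Chek2-/- they correlated by 0.0427 to 0.418 (median 0.152, 4 of 6 above 0.1), against a median of -0.0357 for other numbers. Within wild-type they correlated by -0.0107 to 0.191 (median 0.048, 2 of 6 above 0.1), against -0.0179. What same-numbered samples share was not tested. The block called 2 interferon-stimulated genes in wild-type ovaries, against 0 without it. With single libraries left out the counts ran from 241 to 327, 0 to 2 and 138 to 184. The Chek2-/- count was 0 without Chek2-/- nonIR replicate 3 or Chek2-/- IR replicate 4, 2 without wild-type IR replicate 6 and 9 by DESeq2. With 1 single-cell library per condition, depth limits scarce genes such as Chek2, Lgr5, Gng13, Ifit1 and Eda2r.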
